A study of Rattus norvegicus with 10 samples.

Results

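Genomic loci that give rise to long non-coding RNA (lncRNA) and also to transcripts listed among mRNA were compared in rat cerebral cortex after stroke surgery and after sham surgery. Such a shared locus was defined from the identifiers alone: the assembler numbers each locus and each isoform within it, and a locus was included when at least 1 of its isoforms had a row in the lncRNA table and at least 1 in the mRNA table. There were 3283 such loci, which is 15% of the 21955 loci of the lncRNA table and 1.19% of the 275234 assembled loci of the mRNA table. No single isoform was listed in both tables (0 identifiers in common).

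The libraries came from cerebral cortex of male Sprague-Dawley rats, labelled as 8 to 9 weeks old and 240 ± 20 g in weight. In 5 libraries (MCAO/R, replicates 1 to 5) the middle cerebral artery had been occluded for 2 h and the brain reperfused for 24 h, a model of ischaemic stroke in which blood flow returns. The other 5 libraries (replicates 6 to 10) came from sham-operated rats; the labels give both groups the same strain, sex and tissue and name no genetic change or drug. Since no label ties a library to an animal of its own, a p-value here reflects only how far these samples differ among themselves, and that spread may be technical. The sources used here do not say whether the cortex came from the injured territory.

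A locus can carry coding and non-coding RNA in several ways. A long non-coding transcript may be a spliced isoform that has lost the open reading frame, may keep an intron, or may start from a promoter of its own within a coding gene. Because the assembler groups overlapping transcripts, an lncRNA of this kind can rise or fall with the gene it overlaps or apart from it, and short fragments from shared exons have to be divided between the isoforms by the quantification. Ribosomal RNA was depleted and no selection for poly(A) tails is named in the labels, so unspliced precursor RNA can also be among the assembled isoforms.

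Values are the authors' FPKM, fragments scaled by transcript length and by the library's fragment total, which carry no read totals, so depth is unknown. A sum listed at 0 can be a failed estimate as well as absent RNA. For each locus, the FPKM of its lncRNA rows were summed (the lncRNA sum) and the FPKM of its mRNA-table rows were summed (the mRNA-table sum). The lncRNA share is the lncRNA sum as a percentage of both sums together. The files and the reference gene table pair none of these identifiers with a gene symbol (0 matched), so loci are given by number, their functions are not stated, the cortical origin could not be checked against marker genes, and no sequence or position is shown. An assembled row in the mRNA table is not shown by the files to encode a protein.

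Most shared loci held little lncRNA. The median over the loci of the mean lncRNA sum was 0.25 FPKM, against 1.42 FPKM for the mRNA-table sum, and the lncRNA share of the means had a median of 15%. In 560 of the 3283 loci (17.1%) the lncRNA mean was above the mRNA-table mean, and in 1259 loci the lncRNA share was under 10%. The lncRNA sum of shared loci stood higher than that of lncRNA-only loci, whose median was 0.165 FPKM. The mRNA-table sum stood higher than that of assembled loci in the mRNA table only (median 0.0636 FPKM). These levels were not tested against each other, and the sums take in unlike numbers of rows. The 3283 shared loci held 8384 lncRNA rows and 21585 mRNA-table rows. All 21955 lncRNA loci held 31183 rows, and all 275234 assembled loci of the mRNA table held 338223. A shared locus had a median of 1 lncRNA row (up to 191) and 3 mRNA-table rows (up to 113), and 873 loci had 1 row in each table. A mean of at least 0.1 FPKM was asked for each test. On the lncRNA side 2388 loci reached it, on the mRNA-table side 3119, on both sides 2279, and on neither side 55. In 1 locus the mRNA-table sum was listed at 0 in every library.

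A few very abundant loci held most of the lncRNA. The 4 loci with a mean lncRNA sum of at least 1000 FPKM, MSTRG.236450, MSTRG.236454, MSTRG.78988 and MSTRG.78989, made up 78.6% of the lncRNA sum of all shared loci, and MSTRG.236450 alone 54.3%. In MSTRG.236450, with 5 lncRNA rows and 1 mRNA-table row, the lncRNA sum was 12911, 34969, 16284, 17.9 and 2247 FPKM in MCAO/R replicates 1 to 5 and 707, 12888, 12667, 13071 and 210 FPKM in sham replicates 6 to 10. Its mRNA-table sum was 6695 FPKM in MCAO/R replicate 4, 130 FPKM in sham replicate 10 and listed at 0 in the other 8 libraries. Libraries of each group thus lay far apart, and the library with the lowest lncRNA sum had the highest mRNA-table sum.

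MSTRG.236454, with 2 lncRNA rows and 1 mRNA-table row, also lay on one side or the other in single libraries. Its mRNA-table sum was 5201, 5052, 5531, 51.7 and 5824 FPKM in MCAO/R replicates 1 to 5 and 4483, 5050, 13.2, 15 and 5632 FPKM in sham replicates 6 to 10. Its lncRNA sum was 11159 FPKM in MCAO/R replicate 4 and 14237 FPKM in sham replicate 8, and 18.7 to 772 FPKM in the other libraries. In those 2 libraries the mRNA-table sum was among the 3 lowest. The total of both sums was between 4512 and 6596 FPKM in 7 libraries, 11211 and 14250 FPKM in those with the high lncRNA sum, and 39.9 FPKM in sham replicate 9. In neither locus did either sum pass the test between the groups (limma, adjusted p from 0.564 to 0.996).

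The totals of both sums in MSTRG.78989 also lay far apart, from 25.3 to 2447 FPKM in MCAO/R and from 131 to 1761 FPKM in sham libraries. MSTRG.78988, with 17 lncRNA rows and 21 mRNA-table rows, had a lncRNA sum of 264 to 2918 FPKM in MCAO/R and 211 to 2168 FPKM in sham libraries, with overlapping groups (adjusted p = 0.816). MSTRG.228667 was abundant on the mRNA-table side. Its mRNA-table sum averaged 676 ± 266 FPKM in MCAO/R against 856 ± 219 FPKM in sham libraries (SD, n = 5 each, limma adjusted p = 0.370). Its lncRNA sum averaged 84.1 ± 76.9 FPKM in MCAO/R against 20.8 ± 24.7 FPKM in sham libraries, with overlapping groups, a log2 change of 2.20 with an SE of 0.801 (limma adjusted p = 0.0871). That difference did not pass the threshold of 0.05, although it did with array weights (limma adjusted p = 0.0445), without MCAO/R replicate 2 (0.0332) or without sham replicate 6 (0.0271).

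**Figure D1:**
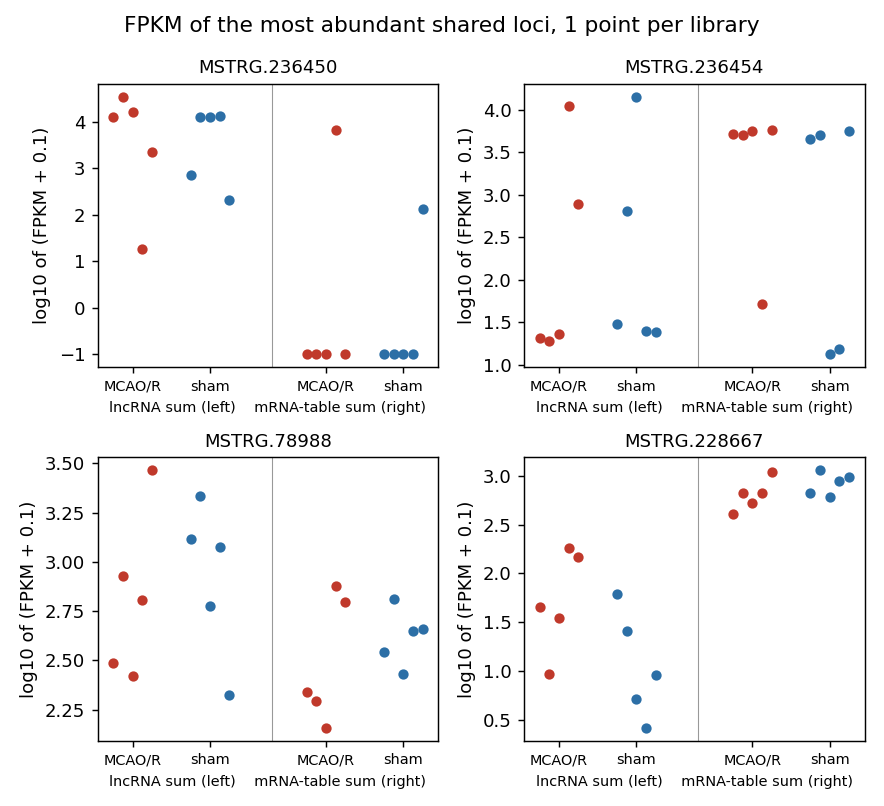
FPKM of the shared loci with the highest mean sums, as log10 of FPKM + 0.1, with 1 point per library in replicate order; in each panel the lncRNA sum is left of the line and the mRNA-table sum right of it, with MCAO/R in red and sham in blue. In MSTRG.236450 and MSTRG.236454 libraries of 1 group lie far apart on both sides, from 17.9 to 34969 FPKM on the lncRNA side of MSTRG.236450.

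The question for each side of the locus was whether its level differed between MCAO/R and sham cortex. Sums were tested as log2(FPKM + 0.1) with limma over the whole of each table, with Benjamini-Hochberg adjustment over every feature tested and a threshold of 0.05. A log2 change of 1 is a 2-fold change, and the added 0.1 makes the change of low loci appear smaller than it is. As deposited, most called lncRNA sums of shared loci were lower after MCAO/R; in bulk tissue, fewer cells of a type and less RNA per cell cannot be told apart. Of 2388 loci, 192 were lower and 44 higher in MCAO/R, together 236 or 9.88%. Over all 14944 lncRNA loci the share called was 9.9%, with 7.64% lower and 2.26% higher, so the share in shared loci was near that of lncRNA loci at large. All 44 that were higher and 181 of the 192 that were lower differed by 2-fold or more. Over all lncRNA loci, 328 of 338 called higher and 1093 of 1141 called lower did so, so this is no trait of shared loci. Among all 2388 loci tested, called or not, the MCAO/R libraries lay wholly below the sham libraries in 116 and wholly above them in 34, where 6% and 1.79% of all lncRNA loci did so. The median log2 change was -0.30 for shared loci and -0.39 over all lncRNA loci tested.

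This balance depended on the scaling between libraries. Scaling to annotated transcripts left 47 shared loci higher and 377 lower. Quantile normalization of each table left 57 higher and 51 lower. With factors from lncRNA rows, an alternative chosen after seeing the data, 70 were higher and 23 lower. The median log2 change over all lncRNA loci was -0.58, -0.07 and 0.05 under these scalings. The quantiles and the factors from lncRNA rows are set from the lncRNA values under test. A shift common to most of these values is thus removed by construction. Leaving out a library also moved the counts. The 192 lower loci became 98, 111, 106 and 86 without MCAO/R replicate 1, 2, 4 or 5, and 72, 88 and 110 without sham replicate 7, 9 or 10. The 44 higher loci became 29, 23 and 22 without MCAO/R replicate 1, 4 or 5, and 22 without sham replicate 7.

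Among lncRNA sums that rose, MSTRG.55496 showed the largest change by the rule for named loci. Its single lncRNA row was at 1.26, 1.24, 0.561, 6.66 and 17.5 FPKM in MCAO/R replicates 1 to 5 and was listed at 0 in all 5 sham libraries, so no fold change is given (limma adjusted p = 0.00112). MSTRG.49856, with 3 lncRNA rows, stood at 2.5, 3.03, 1.67, 3.14 and 6.38 FPKM in MCAO/R and at 0.292, 0.0967, 1.08, 0.962 and 0.453 FPKM in sham libraries. Every MCAO/R library of MSTRG.49856 was above every sham library, and the log2 change of 2.49 had an SE of 0.442 (limma adjusted p = 0.0059). The mRNA-table sum of the same locus averaged 1.44 ± 0.687 FPKM in MCAO/R against 1.53 ± 0.719 FPKM in sham libraries (SD, n = 5 each, limma adjusted p = 0.938), with a log2 change of -0.07 and an SE of 0.387. The lncRNA share of MSTRG.49856 was 56.3% to 79.6% in MCAO/R and 5.72% to 55% in sham libraries, groups that did not overlap, but the test of the share did not pass (adjusted p = 0.301).

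Among called lncRNA sums that fell, averaged 1 FPKM or more and had groups without overlap, MSTRG.35153 showed the largest change. Its 11 lncRNA rows summed to 0.867, 0.621, 0.445, 0.937 and 0.0745 FPKM in MCAO/R and to 4.33, 3.43, 1.75, 4.11 and 2.22 FPKM in sham libraries. Every MCAO/R library of MSTRG.35153 was below every sham library, and the sum fell by 2.40 in log2 units (SE 0.420, limma adjusted p = 0.00561). Its mRNA-table sum averaged 0.222 ± 0.274 FPKM in MCAO/R against 0.733 ± 0.240 FPKM in sham libraries, a log2 change of -1.70 that did not pass (limma adjusted p = 0.0644). It passed with equal sums over both tables (adjusted p = 0.049), scaling to annotated transcripts (0.0431), the highest isoform (0.0102) or without MCAO/R replicate 4 (0.0188). MSTRG.80116, with 17 lncRNA rows and 38 mRNA-table rows, had a lncRNA sum of 2.35 ± 1.21 FPKM in MCAO/R against 9.06 ± 3.33 FPKM in sham libraries (SD, n = 5 each). It fell by 1.95 in log2 units (SE 0.323, limma adjusted p = 0.00419), and its mRNA-table sum fell by 1.59 (SE 0.322, adjusted p = 0.0142), with no overlap of the groups on either side. When only the lncRNA isoform with the highest mean was taken, neither locus passed: its log2 change was -1.23 in MSTRG.35153 (limma adjusted p = 0.2) and 0.19, the opposite direction, in MSTRG.80116 (limma adjusted p = 0.932). The highest mRNA-table isoform of MSTRG.80116 did not pass either, with a log2 change of -2.04 (limma adjusted p = 0.114).

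On the mRNA-table side, shared loci were lower somewhat more often than higher as deposited. Of 3119 loci, 151 were lower and 107 higher in MCAO/R, together 258 or 8.27%, of which 129 and 88 differed by 2-fold or more. Over all 88638 features of the mRNA table the share called was 5.86%, with 4.16% higher and 1.7% lower. There, 2966 of 3687 features called higher and 1315 of 1509 called lower differed by 2-fold or more. Among all 3119 loci tested, called or not, the MCAO/R libraries lay wholly below the sham libraries in 196 and wholly above them in 141, where 2.72% and 4.99% of all features did so. Of the called features, 71% were higher in the table as a whole, 88% among annotated transcripts, 65.2% among assembled loci in the mRNA table only and 41.5% among shared loci. These shares were not tested against each other, and that of shared loci ran from 17.3% to 93.9% over the scalings given next. The excess of lower loci was not kept when a library was left out, apart from MCAO/R replicate 3 (135 higher, 207 lower) and sham replicate 6 (90 higher, 138 lower). The counts were 58 and 58 without MCAO/R replicate 1, 99 higher and 98 lower without replicate 2, 61 and 61 without replicate 4, and 61 higher and 51 lower without replicate 5. They were 72 higher and 52 lower without sham replicate 7, 73 and 71 without replicate 8, 75 and 54 without replicate 9, and 81 and 67 without replicate 10. With equal sums over both tables there were 79 higher and 212 lower, 64 and 306 after scaling to annotated transcripts, 75 and 246 after quantile normalization, and 290 and 19 with factors from lncRNA rows. These scalings moved the median log2 change of all mRNA-table features from -0.08 to -0.20, -0.31, -0.09 and 0.43. The annotated transcripts are themselves among the features tested, with a median log2 change of 0.23 as deposited. Their factors divide MCAO/R libraries by 1.06 to 1.13 and sham libraries by 0.808 to 0.988, which lowers the change of every locus by construction. The quantiles are also set from the mRNA-table values under test.

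The mRNA-table sum that rose most was again that of MSTRG.55496. Its 5 rows summed to 5.55, 7.63, 3.84, 20.7 and 67.6 FPKM in MCAO/R replicates 1 to 5 and to 0.113, 0, 0.0217, 0.0584 and 0 FPKM in sham replicates 6 to 10. The groups did not overlap, and the log2 change of 6.49 had an SE of 0.650 (limma adjusted p = 0.000212). With sham values at or near 0 its size depends on the pseudocount, being 3.67 with 1 and 8.59 with 0.01, and the call held with both. MSTRG.99515, with 1 row in each table, had an mRNA-table value of 10.2, 13.3, 1.1, 1.1 and 1.26 FPKM in MCAO/R and 0.0398 to 0.112 FPKM in sham libraries, a log2 change of 4.19 (SE 0.680, limma adjusted p = 0.00451; 1 alternative, a pseudocount of 1, lost this call). Its lncRNA row was at 2.97 FPKM in MCAO/R replicate 3 and listed at 0 in the other 9 libraries.

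The mRNA-table sum with the largest fall belonged to MSTRG.97925, with 2 mRNA-table rows and 1 lncRNA row. It was at 2.54, 2.61, 2.47, 3.03 and 2.51 FPKM in sham replicates 6 to 10 and listed at 0 in all 5 MCAO/R libraries, so no fold change is given (limma adjusted p = 1.58e-06). The lncRNA row of MSTRG.97925 was present in every MCAO/R library, at 1.48, 2.04, 2.36, 1.42 and 1.17 FPKM, and ranged in sham libraries from listed at 0 to 4 FPKM, with overlapping groups (adjusted p = 0.159). MSTRG.57148, with 82 lncRNA rows and 16 mRNA-table rows, fell on both sides. Its mRNA-table sum was 1.34, 0.184, 0.731, 0.255 and 0.112 FPKM in MCAO/R and 2.69, 16.4, 1.63, 4.65 and 1.79 FPKM in sham libraries. That sum fell by 2.95 in log2 units (SE 0.662, limma adjusted p = 0.0226), with no overlap of the groups. The call for that sum was lost without MCAO/R replicate 4 (adjusted p = 0.0551), MCAO/R replicate 5 (0.0576) or sham replicate 9 (0.055), and also with a pseudocount of 1 (0.0683) or the highest isoform (0.0691).

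**Figure D2:**
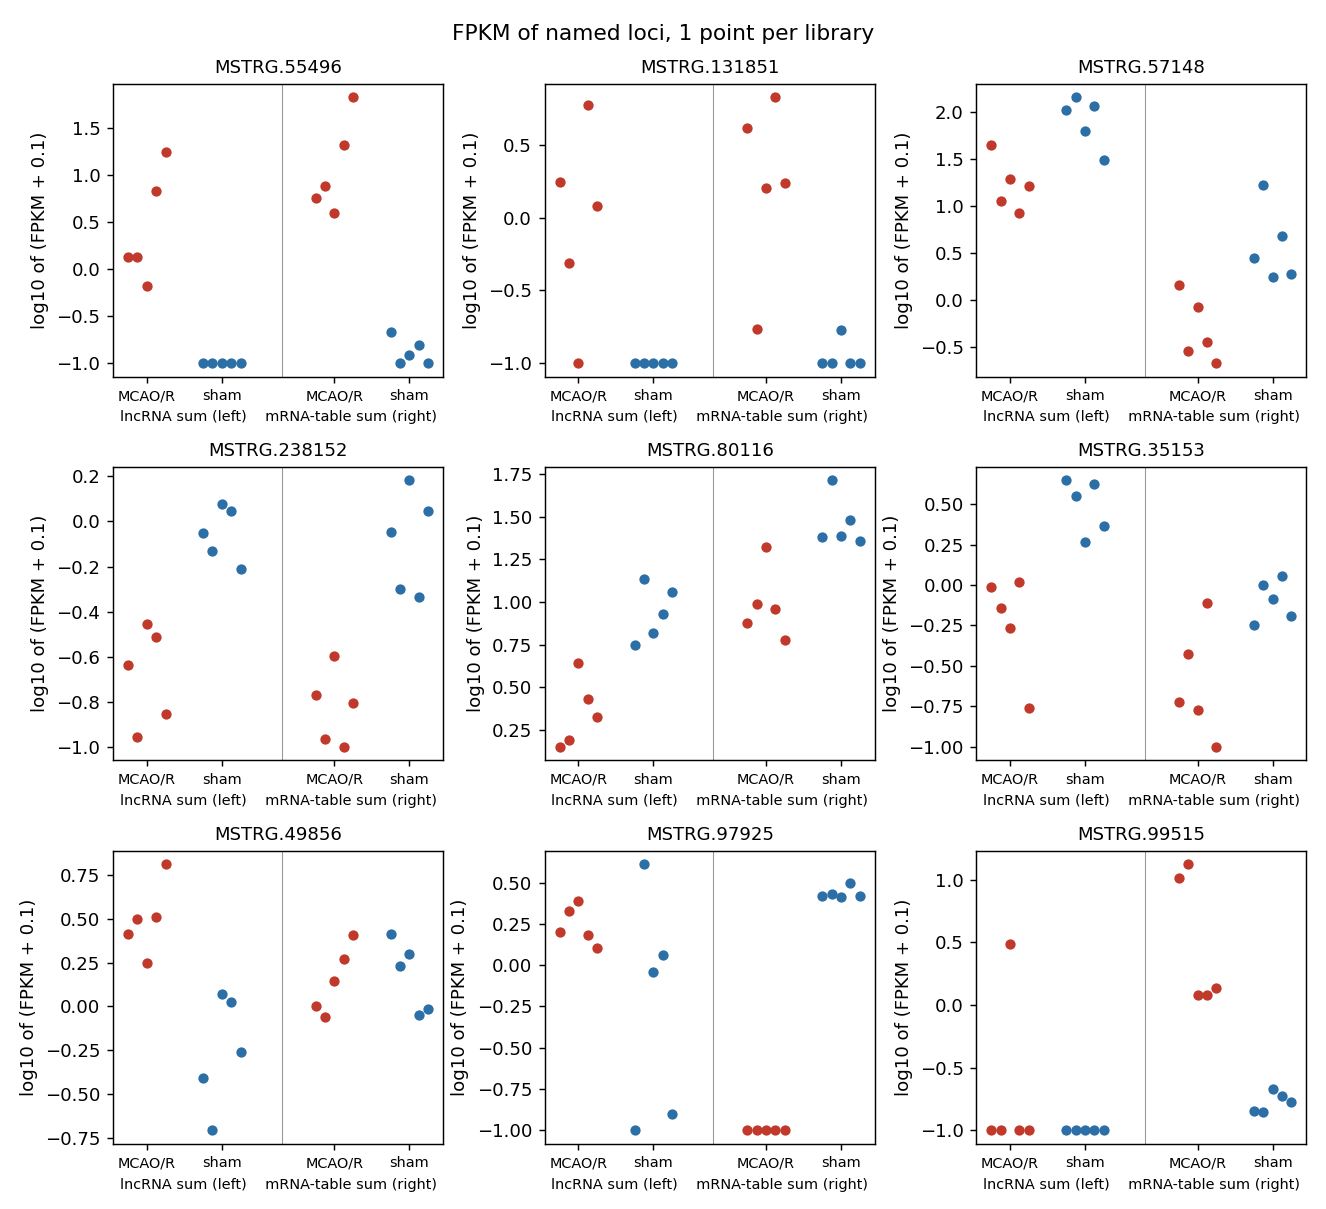
FPKM of the named loci, as log10 of FPKM + 0.1, with 1 point per library in replicate order; in each panel the lncRNA sum is left of the line and the mRNA-table sum right of it, with MCAO/R in red and sham in blue, and a value of -1 on the axis is a sum listed at 0. MSTRG.55496 and MSTRG.131851 are higher in MCAO/R on both sides and MSTRG.57148, MSTRG.238152 and MSTRG.80116 lower on both, while MSTRG.97925 is at 0 on the mRNA-table side in all 5 MCAO/R libraries and above 1 FPKM on the lncRNA side there.

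The direction of both sides was then compared within loci. Of the 2279 loci fitted on both sides, 1436 (63%) had log2 changes of the same sign and 843 (37%) of opposite sign, whether or not a change passed the test. Both changes were below 0 in 1002 loci and above 0 in 434. The lncRNA change was above 0 with an mRNA-table change below 0 in 318, and the reverse held in 525. Since more changes were below 0 than above on each side, part of the agreement in sign follows from that alone. The share with the same sign was 58.4% of loci with a mean lncRNA sum of 0.1 to 0.5 FPKM and 71.5% of those with 1 to 5 FPKM. Across the 2279 loci the log2 changes on both sides correlated at r = 0.40; the loci share their 10 libraries and the scaling of these, so this value is a description. A factor for a whole library moves both sums of a locus the same way, and the share with the same sign was 71.9% after scaling to annotated transcripts and 60% after each table had been quantile normalized.

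Loci that passed on both sides moved the same way without exception as deposited. There were 61 of them, 48 lower and 13 higher on both sides, and 0 opposite. They were 27.6% of the 221 loci called on the lncRNA side, while 8.86% of all 2279 loci were called on the mRNA-table side. They were 30.2% of the 202 loci called on the mRNA-table side, while 9.7% of all 2279 were called on the lncRNA side. Both sums come from the same libraries, and this overlap was not tested. At an unadjusted p under 0.05 on both sides there were 263 loci, of which 199 were lower on both sides, 48 higher on both and 16 opposite. Of 181 loci with a called fall of the lncRNA sum, the mRNA-table change was below 0 in 158, and of 40 with a called rise it was above 0 in 32. Of 75 loci with a called rise of the mRNA-table sum, the lncRNA change was above 0 in 65, and of 127 with a called fall it was below 0 in 117. Among all shared loci tested, called or not, the mRNA-table change was below 0 in 57.9% of 3119 and the lncRNA change in 66.9% of 2388. Changes below 0 were thus frequent among tested loci at large, a wider set than the loci fitted on both sides.

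The number of such loci depended on the libraries included. The same-direction count of 61 was 22, 33, 96, 18 and 16 without MCAO/R replicate 1, 2, 3, 4 or 5, and 17, 28, 20 and 27 without sham replicate 7, 8, 9 or 10. Loci called in opposite directions numbered 0 as deposited, 1 without MCAO/R replicate 2, 2 without MCAO/R replicate 3 and 1 without sham replicate 9. With factors from lncRNA rows, 27 of the loci called on both sides were higher and 3 lower. These factors are set from the lncRNA values under test. With equal sums over both tables, 13 were higher and 80 lower. The counts were 13 and 118 after scaling to annotated transcripts, and 12 and 28 after quantile normalization. Among these scalings, only the factors from lncRNA rows turned the prevailing direction. The other scalings are also set from values under test, so they give no independent support for that direction.

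The 13 loci that rose on both sides had fitted log2 changes of 1.27 to 4.75 in the lncRNA sum (median 1.94) and 1.26 to 6.49 in the mRNA-table sum (median 2.18); the upper lncRNA value belongs to MSTRG.55496, listed at 0 in sham, and depends on the pseudocount. After MSTRG.55496, described above, the next locus, ranked by the smaller of its changes on both sides, was MSTRG.131851, with 1 row in each table. Its mRNA-table value was 3.99, 0.0707, 1.5, 6.63 and 1.62 FPKM in MCAO/R replicates 1 to 5, and in sham libraries it was 0.0685 FPKM in replicate 8 and listed at 0 in the other 4. Its lncRNA value was 1.65, 0.387, 0, 5.8 and 1.11 FPKM in MCAO/R and listed at 0 in every sham library. MCAO/R replicate 3 was thus at the sham level on the lncRNA side. Both sides of MSTRG.131851 passed (limma adjusted p = 0.0176 and 0.0126), and neither did with a pseudocount of 1 (adjusted p = 0.0715 and 0.061).

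The 48 loci that fell on both sides had log2 changes of -2.40 to -0.97 in the lncRNA sum (median -1.44) and -2.95 to -0.61 in the mRNA-table sum (median -1.38). In 32 of the 48 the fitted change was larger on the lncRNA side, but only 1 of the 48 had an unadjusted p under 0.05 for the ratio (limma). A larger fall on the lncRNA side is thus not shown. In 19 the groups did not overlap on either side. The MCAO/R libraries lay wholly below the sham libraries in 6% of all lncRNA loci and 2.72% of all mRNA-table features. The 48 had been selected by passing on both sides. Their lncRNA share of the means had a median of 37.1%, against 15% over all 3283 shared loci, fitted or not. The lncRNA side passed in 5.44% of tested loci with a share under 10% and in 16.2% of those over 50%. The higher median therefore cannot be told apart from the selection by calls. The falls with the largest smaller side were those of MSTRG.57148 and MSTRG.238152. The lncRNA sum of MSTRG.57148 was 43.6, 11.1, 19.1, 8.23 and 16.3 FPKM in MCAO/R and 103, 143, 62.6, 116 and 30.7 FPKM in sham libraries, overlapping by MCAO/R replicate 1 and sham replicate 10, and fell by 2.27 in log2 units (SE 0.451, limma adjusted p = 0.00916; 0.0688 with factors from lncRNA rows). MSTRG.238152, with 2 rows in each table, was low but separated on both sides. Its lncRNA sum was 0.01 to 0.249 FPKM in MCAO/R and 0.513 to 1.09 FPKM in sham libraries (adjusted p = 0.0062), and its mRNA-table sum was 0 to 0.153 and 0.362 to 1.42 FPKM (adjusted p = 0.00502).

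**Figure D3:**
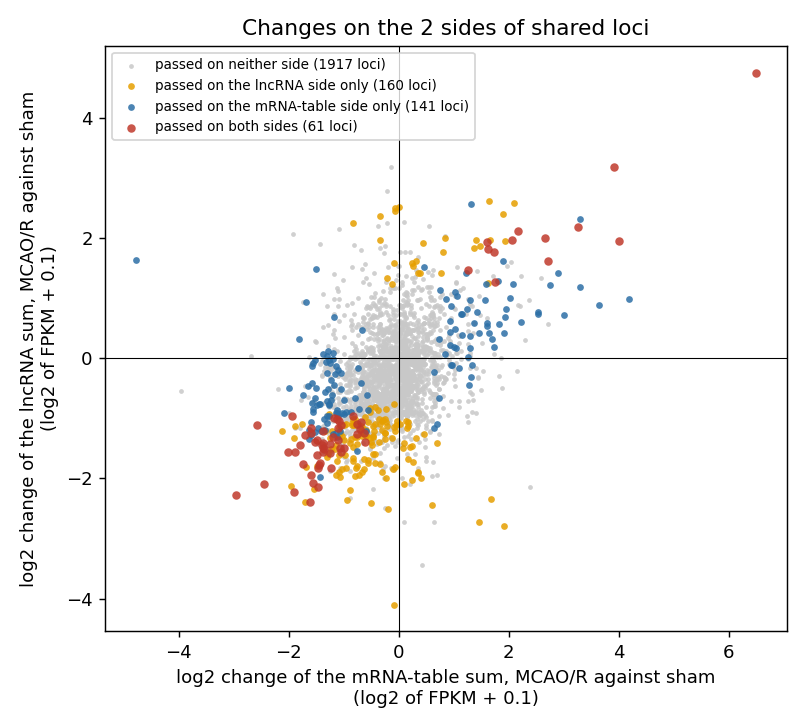
Each point is 1 of the 2279 shared loci fitted on both sides, with the log2 change of the mRNA-table sum across and of the lncRNA sum upward, both MCAO/R against sham on log2(FPKM + 0.1); colours mark loci that passed adjusted p < 0.05 on neither, 1 or both sides. The 61 red points, which passed on both sides, lie at the lower left (48) and the upper right (13).

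The lncRNA share of the locus asks whether the balance within a locus changed, and a factor for a whole library cancels in it apart from the pseudocount. It was tested as the difference of log2(FPKM + 0.1) between both sums over the 2279 loci, the only ones for which it is defined at these levels. No locus passed: limma called 0 of 2279 (0% called), while 239 (10.5%) had an unadjusted p under 0.05, 168 with a lower and 71 with a higher ratio in MCAO/R. Where a sum is at or near 0, the pseudocount can turn this ratio against the share in percent. Averaging log2 ratios in place of percentages can do so too. The signs were opposite in 7 of the 239 and in 220 of the 2279 loci (9.65%), and the reason was not separated. By group means of the share in percent, 162 of the 239 were lower, 75 higher and 2 not defined in a group. The shares in percent did not overlap between groups in 45 loci with a lower share (1.97%) and 18 with a higher share (0.79%), called or not. The smallest adjusted p was 0.0541. The median log2 change of the ratio was -0.17, with 59.5% of loci below 0, but quantile normalization of each table turned the median to 0.28. The absence of calls does not show a constant balance, since the 95% interval of the change had a median half-width of 1.25 on the log2 scale and lay within a 2-fold change in either direction in 188 loci (8.25%). A pseudocount of 1 gave 5 calls, other settings with all libraries between 0 and 2, and leaving out MCAO/R replicate 3, sham replicate 7, 8 or 9 gave 2, 2, 1 and 3 where the full set gave 0.

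The smallest adjusted p belonged to MSTRG.97925, a locus singled out here after its values were seen. Its lncRNA share was 100% in each MCAO/R library, where the mRNA-table sum was listed at 0, and 0, 60.5, 24.8, 26 and 1.04% in sham replicates 6 to 10, so the groups did not overlap. It passed in 9 of 22 alternatives. MSTRG.55496 had the lncRNA share at 12.7% to 24.3% in MCAO/R and at 0 in the 3 sham libraries in which the locus was detected; its mRNA-table sum in sham libraries was at most 0.113 FPKM, so its share there rests on very low values. The tested ratio of MSTRG.55496 went the other way, with a log2 change of -1.74 (limma adjusted p = 0.298), and with a pseudocount of 1 it was called lower (-1.65, adjusted p = 0.000174).

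Shares of single loci varied widely between libraries of the same group. The range over the 5 libraries had a median of 19 percentage points in MCAO/R and 19 in sham, and over all 10 libraries 29.6 points, with 714 loci (31.3%) spanning at least 50 points. In 937 of the 2279 loci the lncRNA sum was listed at 0 in some library where the mRNA-table sum was above 0, in 205 the opposite occurred, and in 81 (3.55%) both occurred in different libraries. Nor did a common direction of both sums within groups prevail. After removal of group means, their correlation over the 10 libraries had a median of 0.04 over loci, with quartiles of -0.31 and 0.39, a description in which all loci share the same libraries.

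Summed over all 3283 loci, the lncRNA share was 44.9, 67.1, 52.5, 45.6 and 33.8% in MCAO/R replicates 1 to 5 and 22.7, 50, 68.5, 53.6 and 23% in sham replicates 6 to 10. The means were 48.8 ± 12.2% and 43.6 ± 20.1% (SD, n = 5 each), and the sham libraries spanned the whole MCAO/R range. Without the 4 loci over 1000 FPKM the share averaged 21.2 ± 2.96% in MCAO/R against 21.9 ± 1.87% in sham libraries. The typical locus gave another picture: the median share over the 2279 loci was 11.7 ± 1.21% in MCAO/R (10.2% to 12.7%) and 14.6 ± 2.01% in sham libraries (12% to 17.4%), overlapping by sham replicate 6. A value over a set of loci chosen with earlier results known is given no p-value.

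**Figure D4:**
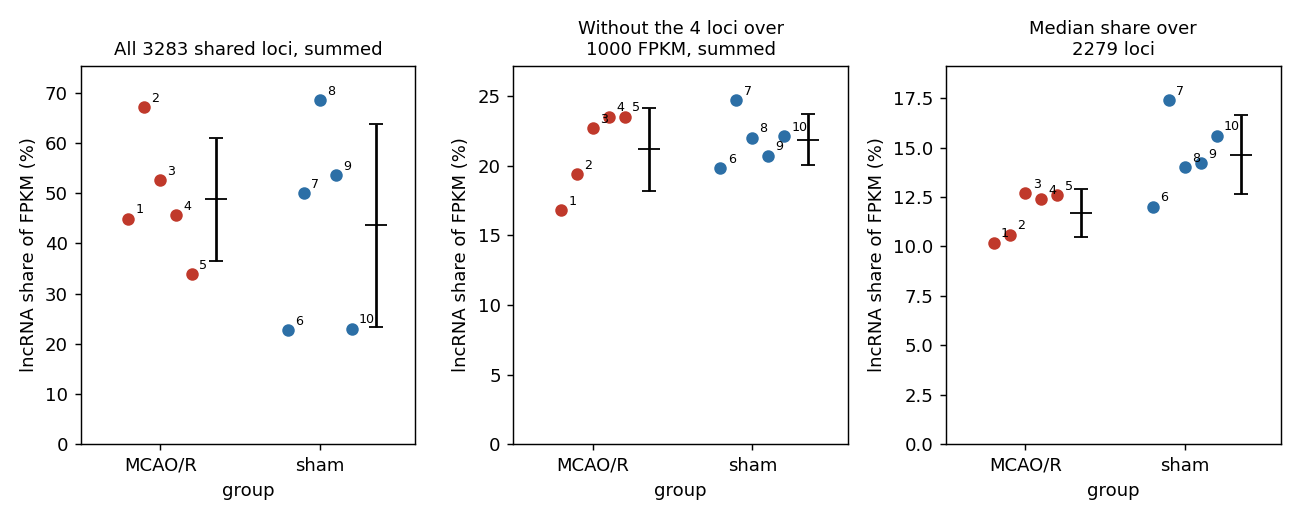
lncRNA share of FPKM in percent for each library, labelled by replicate number, with the group mean and SD as the black mark and bar; the panels show all shared loci summed, the sum without the 4 loci over 1000 FPKM, and the median share over 2279 loci. The summed share ranges from 22.7% to 68.5% with mixed groups, while 4 of 5 sham libraries lie above every MCAO/R library in the median share.

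Calls on the lncRNA side were more frequent at higher lncRNA levels and in loci with more lncRNA rows, but showed no such order by mRNA-table rows (10.4% of loci with 1, 9.48% with 2 to 4, 8.33% with 5 to 9 and 11% with 10 or more). The lncRNA sum passed in 5.1% of 1215 loci with 1 lncRNA row, 10.4% of 731 loci with 2 to 3 rows and 22.2% of 442 loci with 4 or more. In the last, 90 loci were lower and 8 higher. A sum grows with its rows: 1215 of 2071 loci with 1 lncRNA row reached 0.1 FPKM, against all 442 with 4 or more. Level and number of rows were thus not separated here. By level, 4.44% of shared loci with a mean lncRNA sum of 0.1 to 0.5 FPKM passed, 12.9% at 0.5 to 1 FPKM, 20.4% at 1 to 5 FPKM and 22% at 5 FPKM or more. lncRNA-only loci passed in 5.59%, 21.2%, 40.2% and 21.4% at the same levels. The near-equal share called in shared and lncRNA-only loci over all levels thus came with a lower share in shared loci at 0.5 to 5 FPKM and a larger part of the loci at high levels; this difference was not tested.

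On the mRNA-table side, most calls among the most abundant shared loci were falls. Of 108 shared loci with at least 20 FPKM, 19 (17.6%) were lower and 2 (1.85%) higher, where 6.39% of assembled loci in the mRNA table only were lower and 11.7% higher, and 4.03% of annotated transcripts were lower and 25.5% higher. At 5 to 20 FPKM, 28 of 703 shared loci were lower and 28 higher, or 3.98% each. At that level 2.97% of assembled loci in the mRNA table only were lower and 8.76% higher. Of annotated transcripts, 1.9% were lower and 15.1% higher. All of these counts are as deposited, and the balance over all shared loci moved with the scaling, as given above. These shares were not tested against each other, and annotated features are single transcripts while loci are sums.

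**Figure D5:**
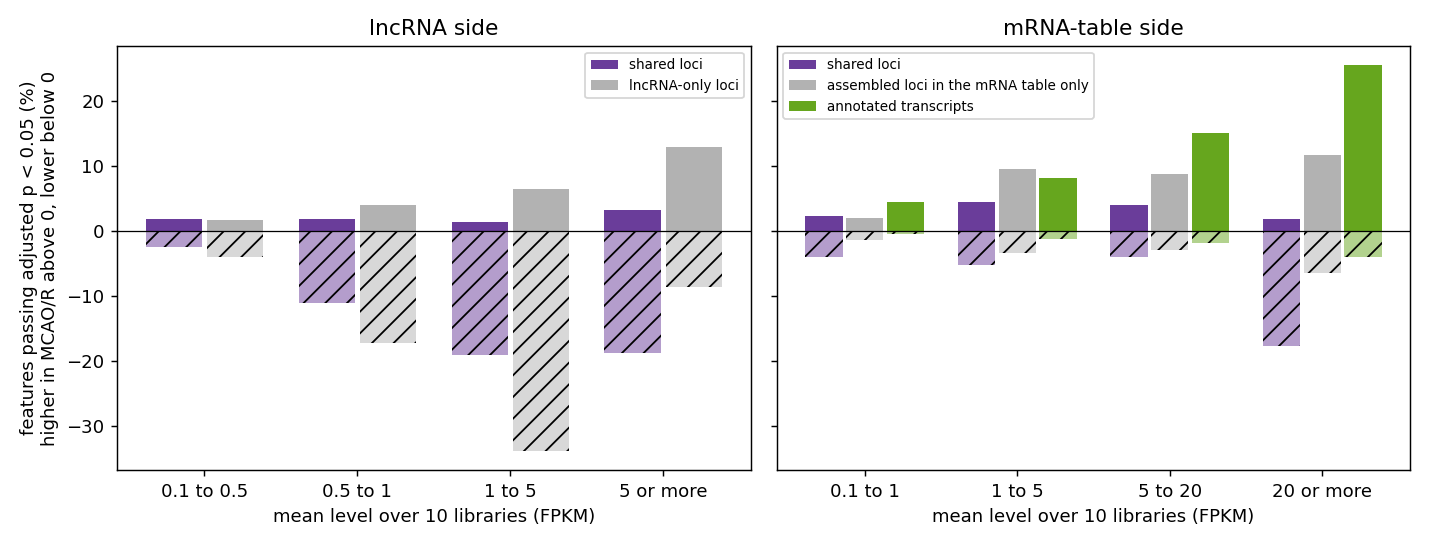
Percentage of features that passed adjusted p < 0.05 by mean level over the 10 libraries, with those higher in MCAO/R drawn upward and those lower drawn downward (hatched), for the lncRNA side and the mRNA-table side. Shared loci (purple) with at least 20 FPKM on the mRNA-table side were lower in 17.6% and higher in 1.85%.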

How the data were processed

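The authors deposited 2 tables of FPKM, 1 for lncRNA and 1 for mRNA, with 1 column for each of 10 libraries. Per the submitters' processing notes the genome build is Rnor_5.0. Aligner, assembler, quantification tool and the library total behind the FPKM: not given in the sources used here. Per the labels' protocols, 1.5 µg of TRIzol-extracted RNA per library was depleted of rRNA and made into directional libraries.

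Isoform FPKM were summed by locus within each table. Sums (and annotated transcripts as deposited) whose mean reached 0.1 FPKM were tested on log2(FPKM + 0.1) with limma 3.58.1 in R 4.3.3 (lmFit, eBayes with an intensity trend, group only, two-sided), adjusted by Benjamini-Hochberg over each whole table. The same pseudocount was used in both tables so that the sides of a locus share a scale. The procedure was tested on simulated normal log2 values with known changes. These lack the many sums at 0 of the real data, so that test does not vouch for calls in such loci. No library pair held identical values (0 pairs).

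The loci and lists were chosen with earlier results of these data known. Named loci are the 2 with the largest change in each direction that passed, had groups without overlap and averaged 1 FPKM or more, the 2 in each direction called on both sides with the largest smaller change, and the 3 most abundant on each side. Lists of cell type markers and injury genes could not be used, since no identifier matched a symbol.

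Alternatives used another pseudocount or filter, other library scalings (equal sums, annotated transcripts, quantiles, lncRNA rows), no intensity trend, array weights, the highest isoform in place of the sum, a stricter threshold, or 1 library fewer. The lncRNA share is defined only where both sums exist, so its p-values were adjusted over the shared loci alone.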

Additional observations from a re-analysis of the deposited data

Results flagged for a closer look

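Each set of 5 values in 1 group was searched for a library far from the rest by Dixon's criterion. Chance alone meets it in about 1 set in 20 when values follow a normal distribution. FPKM of single loci are often skewed or at 0, so that rate need not hold for them. There were 56 sets: 48 were 1 side of a named locus, 4 more such sets being at 0 throughout, and 8 were summary values over the loci. Of these, 15 met it, 0 of them summary values, and several were otherwise listed at 0. In MSTRG.236450 the mRNA-table sum was 6695 FPKM in MCAO/R replicate 4 and 130 FPKM in sham replicate 10, with 0 in the other libraries of each group. In MSTRG.236454 the lncRNA sum was 11159 FPKM in MCAO/R replicate 4 (next 772) and 14237 FPKM in sham replicate 8 (next 638), and the mRNA-table sum of MCAO/R replicate 4 was 51.7 FPKM, the next lowest being 5052. MSTRG.78988 had a lncRNA sum of 2918 FPKM in MCAO/R replicate 5 (next 852).

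Sham replicate 7 was the highest sham library in the mRNA-table sums of MSTRG.80116 (51.5 FPKM, next 30.2) and MSTRG.57148 (16.4, next 4.65) and in the lncRNA sum of MSTRG.97925 (4 FPKM, next 1.06). MCAO/R replicate 3 was the highest of its group in the mRNA-table sum of MSTRG.80116 (20.9 FPKM, next 9.67) and in the lncRNA sum of MSTRG.99515 (2.97 FPKM, the others at 0). MSTRG.55496 reached 67.6 FPKM on the mRNA-table side in MCAO/R replicate 5 (next 20.7). MSTRG.131851 reached 5.8 FPKM on the lncRNA side in MCAO/R replicate 4 (next 1.65) and 0.0685 FPKM on the mRNA-table side in sham replicate 8, the other sham libraries being at 0. The mRNA-table sum of MSTRG.97925 was 3.03 FPKM in sham replicate 9 (next 2.61).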

How the results depend on the processing

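No paired analysis was possible because the groups share no replicate number. Alternatives were set against 44 higher and 192 lower lncRNA sums, 107 higher and 151 lower mRNA-table sums, 0 shares, 61 loci called on both sides in the same direction and 0 in opposite directions, and 63% with the same sign. A pseudocount of 1 gave 25 and 126 lncRNA sums, 5 shares and 30 loci on both sides. A mean of at least 0.5 FPKM gave 25 higher lncRNA sums, 1 share and 68.7% with the same sign. Without a filter there were 70 and 71 mRNA-table sums, 1 share, 40 loci on both sides and 61%. Equal sums over both tables gave 93 loci on both sides and 66.8%. Factors from annotated transcripts gave 377 lower lncRNA sums, 64 and 306 mRNA-table sums, 131 loci on both sides, 1 opposite and 71.9%. Quantile normalization gave 51 lower lncRNA sums, 246 lower mRNA-table sums, 1 share, 40 loci on both sides and 60%. Without the intensity trend there were 71 lower lncRNA sums, 67 and 67 mRNA-table sums and 17 loci on both sides. Array weights gave 1 share and 1 opposite. The highest isoform in place of the sum gave 26 and 105 lncRNA sums, 59 and 43 mRNA-table sums, 2 shares, 18 loci on both sides and 59.5%, and its lncRNA change in MSTRG.80116 was 0.19. At an adjusted p under 0.01 there were 10 and 24 lncRNA sums, 25 and 16 mRNA-table sums and 4 loci on both sides. Factors from lncRNA rows, chosen after seeing the data, gave 70 and 23 lncRNA sums, 290 and 19 mRNA-table sums, 1 share and 30 loci on both sides. The causes were not tested. Leaving out each library in turn gave 22 to 60 higher and 72 to 266 lower lncRNA sums, 58 to 135 higher and 51 to 207 lower mRNA-table sums, 0 to 3 shares, 16 to 96 loci on both sides, 0 to 2 opposite and 62.2% to 64.4% with the same sign. The difference in the summed share, 5.2 percentage points, was also recomputed without the 4 loci over 1000 FPKM, chosen after seeing the data. Of 567 values of named loci under the alternatives, 544 kept their direction or lack of a call, 15 lost the call, 7 gained one and 1 reversed. Depth is unknown, so no detection limit can be given for sums listed at 0.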

Other observations

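Loci called in opposite directions on both sides appeared under 5 of 22 alternatives, 6 loci in all and each under 1 alternative. They were chosen after their values were seen. Without MCAO/R replicate 3, the lncRNA sum of MSTRG.143279 had a log2 change of -3.44 and its mRNA-table sum of 2.53 (limma adjusted p = 0.00304 and 0.00102), and the share of this locus passed as well (adjusted p = 0.0439). Without the same library MSTRG.296655 had changes of -2.72 and 1.77 (limma adjusted p = 0.0399 and 0.0365). Without MCAO/R replicate 2, MSTRG.158228 had changes of 2.69 and -1.37 (limma adjusted p = 0.0275 and 0.0417). The other 3 were MSTRG.179196 without sham replicate 9 and, with all 10 libraries included, MSTRG.45279 after scaling to annotated transcripts (1.33 and -0.36, limma adjusted p = 0.0132 and 0.0439) and MSTRG.173209 with array weights (-1.29 and 0.67, limma adjusted p = 0.0428 and 0.0263). With all libraries and the values as deposited, none of the 6 was called on both sides.

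The part of each table's FPKM that lay in shared loci also varied. It was 25.8% to 52.6% of the lncRNA table in MCAO/R and 12.6% to 43.4% in sham libraries, and 5.95% to 6.39% of the mRNA table in MCAO/R and 5.22% to 8.04% in sham libraries.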
